A study of Mus musculus with 8 samples.

Results

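Of the 15995 genes with an expression value in newborn mouse epidermis, 340 carry a symbol of Zfp followed by a digit, Zfp750 aside, and 237 of these are described here. They were chosen by level alone: a gene entered when its FPKM, the fragments per kilobase of transcript, scaled to library size, reached 1 in at least 4 of the 8 libraries. The other 103 stayed below this minimum, and 62 of them reached 1 FPKM in no library. RNA came from peeled epidermis, in 4 samples from ZFP750-/- pups, called KO here, and 4 from wild-type pups, called WT, all newborn and of the inbred strain C57BL/6J, with no agent given to either group. How the knockout allele was made, which part of the gene it removes, and the sex and litter of the pups are stated in no source used here. The comparison asks which of the other Zfp genes differ in level when Zfp750, a zinc finger protein of differentiating keratinocytes, is missing.

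Zfp symbols name mouse proteins by a fold and not by ancestry. Most carry C2H2 fingers, small loops held by a zinc ion between a pair of cysteines and a pair of histidines, which read DNA when strung in tandem. Many of these proteins open with a KRAB domain, a short segment that recruits the corepressor Trim28 (KAP1) and through it the histone methyltransferase Setdb1, and that is best known for silencing transposable elements. A small branch, Zfp36, Zfp36l1 and Zfp36l2, carries CCCH fingers in place of C2H2 fingers. These proteins bind AU-rich elements of messenger RNAs and recruit the CCR4-NOT deadenylase, which shortens the poly(A) tail and leads to decay, and their best known targets encode cytokines and growth factors.

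Zfp750 itself stood at 2.68, 2.31, 2.29 and 1.53 FPKM in KO1 to KO4, against 119, 111, 81.6 and 93.7 FPKM in WT1 to WT4, so each library matched its genotype label. The number of genes at 1 FPKM or more was 10637 to 11368 in KO libraries and 10745 to 11599 in WT libraries. Sample titles carry a code of unstated meaning: 44 for KO3, KO4, WT1 and WT2, 11 for KO1 and WT4, and 14 for KO2 and WT3. Where values are given within codes, codes 11 and 14 form a single set. The ribosomal RNA gene Rn45s has values of 13324 and 7262 FPKM in KO1 and KO2 and of 8239 and 10440 FPKM in WT1 and WT2, but is listed at 0 in the other 4 libraries. Within each set of title codes, the KO libraries thus stand on the other side of this listing from the WT libraries.

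The 237 genes were mostly of low level. Their 8-library mean was 3.63 FPKM at the median, against 10.2 FPKM for all 11395 genes tested, and 145 of the 237 averaged less than 5 FPKM. The 7 most abundant, Zfp36, Zfp706, Zfp36l1, Zfp266, Zfp207, Zfp185 and Zfp36l2, held 41.18% of the FPKM of all 237. All 237 had at least 1 library at the minimum in each genotype, and 177 reached it in all 8. Just inside the minimum lay Zfp688, Zfp229 and Zfp873, whose 4th highest library had 1.01, 1.06 and 1.06 FPKM. Just outside lay Zfp174, Zfp385b and Zfp59, with 0.989, 0.969 and 0.951 FPKM.

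Few Zfp genes differed between KO and WT epidermis. In limma's test on log2(FPKM + 1), with Benjamini-Hochberg adjustment over the 11395 genes at 0.05, 12 of the 237 passed (5.06%), against 15.7% of all genes tested. Of these, 5 were higher in KO, where 6.72% of all genes were, and 7 were lower in KO, where 8.94% of all genes were. The genes that rose were Zfp703, Zfp667, Zfp36l1, Zfp106 and Zfp292, and those that fell were Zfp672, Zfp251, Zfp518a, Zfp799, Zfp119b, Zfp644 and Zfp772. At an unadjusted p under 0.05 there were 48 genes, and the smallest adjusted p among the genes that did not pass was 0.0508, for Zfp326. The KO and WT libraries did not overlap in 29 genes, 9 with KO above WT and 20 with KO below WT, against 21.3% of all genes in either direction. Of the 237 differences, 196 lay between -0.5 and 0.5 on the log2 scale. Their lower and upper quartiles were -0.32 and 0.17, against -0.24 and 0.25 for all genes tested. Below 0 lay 150 of the 237 (63.29%), against 49.13% of all genes, and the median was -0.12, against 0.01. Within title code 44 the median of the 237 was 0.16, and within codes 11 and 14 it was -0.37. Among Zfp genes averaging less than 5 FPKM 4 of 145 passed (2.76%), against 12.4% of all genes at that level, and among those at 5 FPKM or more 8 of 92 passed (8.70%), against 17.1%.

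The 12 calls were not equally firm. Each kept its direction in all 27 alternative fits. In fits that left out libraries or changed the pseudocount, filter or weights this was bound to happen. The KO and WT libraries overlapped in none of the 12. Zfp672, Zfp36l1, Zfp106 and Zfp251 passed whichever single library was left out. Zfp518a no longer passed without WT2, Zfp703 without KO1, KO2, WT1 or WT2, Zfp667 without KO3, WT1, WT2 or WT4, and Zfp799 without KO1, KO2 or any WT library but WT3. Zfp119b stopped passing when any library but KO4 or WT3 was left out, Zfp772 when any but KO4 was, Zfp292 when any but KO1 was, and Zfp644 when any but KO1 or WT2 was. The number of Zfp genes that passed was 29 without KO4, 6 without KO2, WT1 or WT4, and 5 without WT2.

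**Figure D1:**
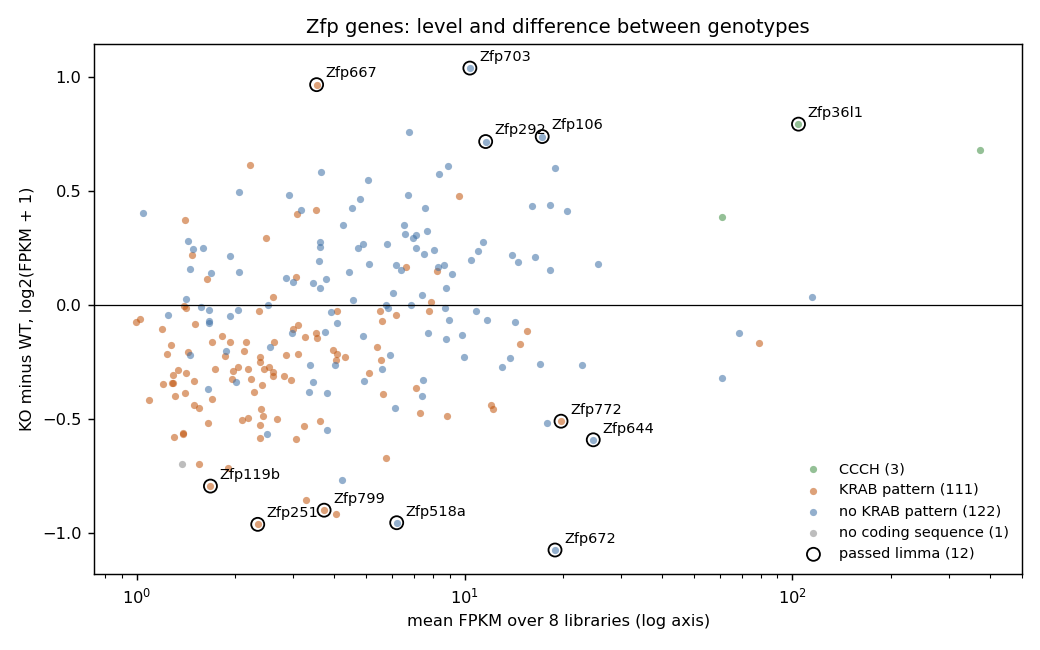
Each point is 1 of the 237 Zfp genes; the horizontal axis is its mean FPKM over the 8 libraries (log axis), the vertical axis its KO minus WT difference in log2(FPKM + 1), and the colour its class. The 12 ringed and named genes passed limma's test; most others lie within 0.5 of the line at 0, and KRAB-pattern genes gather at low levels and below 0.

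The upstream sequences of 4 of the 12 are shown because their CpG content differs widely. Each is the 250 bases before the gene's start in RefSeq (GRCm38.p6), 5′ to 3′ in the direction of the gene, with CpG dinucleotides in capitals.
Zfp672 (chr11:58330340-58330589, minus strand): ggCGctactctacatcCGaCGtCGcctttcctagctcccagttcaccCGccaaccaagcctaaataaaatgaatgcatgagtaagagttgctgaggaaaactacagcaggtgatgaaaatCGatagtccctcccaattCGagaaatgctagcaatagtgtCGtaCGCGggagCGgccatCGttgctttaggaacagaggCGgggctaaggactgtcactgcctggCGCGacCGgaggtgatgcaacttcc
Zfp119b (chr17:55949501-55949750, minus strand): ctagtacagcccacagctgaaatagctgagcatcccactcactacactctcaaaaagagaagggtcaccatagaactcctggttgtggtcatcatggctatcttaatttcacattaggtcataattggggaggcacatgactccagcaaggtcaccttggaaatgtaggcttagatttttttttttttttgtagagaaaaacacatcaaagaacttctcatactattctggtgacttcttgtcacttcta
Zfp667 (chr7:6286330-6286579, plus strand): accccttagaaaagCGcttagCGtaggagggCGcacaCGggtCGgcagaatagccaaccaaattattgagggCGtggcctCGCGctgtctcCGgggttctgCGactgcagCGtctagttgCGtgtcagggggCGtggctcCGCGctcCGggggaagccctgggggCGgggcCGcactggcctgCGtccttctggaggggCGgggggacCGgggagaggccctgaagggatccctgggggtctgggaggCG
Zfp36l1 (chr12:80113014-80113263, minus strand): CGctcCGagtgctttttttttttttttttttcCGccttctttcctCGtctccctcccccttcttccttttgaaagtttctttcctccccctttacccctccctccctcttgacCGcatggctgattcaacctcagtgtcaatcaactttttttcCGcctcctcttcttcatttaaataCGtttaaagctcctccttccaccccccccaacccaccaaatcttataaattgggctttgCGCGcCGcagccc
The window of Zfp119b, which fell, holds 0 CpG dinucleotides, and that of Zfp672, which fell as well, holds 16. Those of Zfp667 and Zfp36l1, which rose, hold 22 and 10. RefSeq windows of the same 250 bases could be matched for 200 of the 237 genes. Their CpG ratio, the number of CpG dinucleotides over that expected from the C and G content, had a median of 0.629, against 0.373 for all 32851 windows of this length. The GC box GGGCGG or its reverse complement CCGCCC was present in 47.5% of the Zfp windows and in 32.7% of all windows. The Zfp windows are 1 per gene and of expressed genes, and all windows were limited in neither way. These values therefore do not show a trait particular to Zfp genes.

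The CCCH branch held the Zfp gene with the highest level and 1 that rose. Zfp36l1 had 136, 95.3, 153 and 148 FPKM in KO1 to KO4, against 84.2, 82.2, 68.9 and 67.2 FPKM in WT1 to WT4. Every KO library lay above every WT library, and the difference was 0.79 ± 0.16 (log2, SE; limma adjusted p = 0.0105). It was 0.85 within title code 44 and 0.74 within codes 11 and 14, and 0.45 among the libraries with an Rn45s value and 1.13 among those listing it at 0. Zfp36l1 no longer passed in codes 11 and 14 alone or in the libraries with an Rn45s value alone. Zfp36, known as tristetraprolin, had 552, 340, 405 and 483 FPKM in KO1 to KO4 and 396, 397, 118 and 300.3 FPKM in WT1 to WT4. WT3 was the lowest and the genotypes overlapped, and the difference of 0.68 ± 0.36 did not pass (limma adjusted p = 0.258), though one of 1.26 did with log2 Xist as covariate. It was 0.16 within title code 44 and 1.20 within codes 11 and 14. Zfp36l2 had 107, 98.4, 53.6 and 29.97 FPKM in KO1 to KO4, against 45.0, 43.0, 50.7 and 58.9 FPKM in WT1 to WT4. KO1 and KO2 lay above all WT libraries and KO4 below them (0.38 ± 0.35, limma adjusted p = 0.528), and Zfp36l2 passed without KO4, with a difference of 0.74. Among the libraries with an Rn45s value the difference was 1.20, and among those listing it at 0 it was -0.44.

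Partners and targets of the CCCH proteins were read from lists. Of 20 tested genes of the CCR4-NOT complex and related decay factors 1 rose and 1 fell (10%, against 15.7% of all genes). Without KO4 3 passed, and without any other library but WT4 1 did. The median difference of the list was 0.14, against 0.01 over all genes. Elavl1, an RNA-binding protein that stabilizes AU-rich messengers, averaged 18.6 ± 1.78 FPKM in KO and 12.02 ± 2.64 FPKM in WT (SD, n = 4 each; 0.60 ± 0.16, limma adjusted p = 0.0307). Cnot6l, a catalytic deadenylase subunit, averaged 55.3 ± 9.75 FPKM in KO and 91.5 ± 13.1 FPKM in WT (SD, n = 4 each; -0.72 ± 0.15, limma adjusted p = 0.0119). Cnot6l passed whichever single library was left out, and of these 8 fits Elavl1 passed only in those without KO4 or without WT4. Neither gene passed with log2 Xist as covariate, in title code 44 alone or in the libraries listing Rn45s at 0 alone. Of 16 messengers known as targets of tristetraprolin, 9 were tested and 5 rose, with a median difference of 1.70. On this list 3 passed without KO1, KO2, KO3, WT1 or WT2. With no filter on level the 16 had a median of 0.95, and 5 rose and 1 fell. The fits without KO4 and without WT3 also held 1 that fell. The median of the 9 was 3.20 among the libraries with an Rn45s value and 0.96 among those listing it at 0. It was 1.24 within title code 44 and 2.84 within codes 11 and 14. The chemokine Ccl20 had 67.1, 34.9, 11.5 and 10.96 FPKM in KO1 to KO4, against 1.503, 1.56, 2.35 and 1.98 FPKM in WT1 to WT4 (3.12 ± 0.50, limma adjusted p = 0.00303). The 4 KO libraries lay above all WT libraries, with KO1 and KO2 the highest. Ier3, an immediate early gene (2.38), Tnf, the cytokine tumour necrosis factor (2.12), the chemokine Cxcl1 (3.54) and Vegfa, the angiogenic growth factor (0.92), rose too, with limma adjusted p between 0.0031 and 0.0273. Ier3 and Ccl20 passed in all 27 alternative fits. Vegfa no longer passed in codes 11 and 14 alone or in the libraries listing Rn45s at 0 alone. Tnf and Cxcl1 no longer passed without KO1, KO2, KO3, WT1 or WT2, and Cxcl1 without WT3 either. Both also failed to pass in title code 44 alone, with log2 Xist as covariate, and in the libraries listing Rn45s at 0 alone. Cxcl1 had 78.0, 93.5, 15.2 and 2.54 FPKM in KO1 to KO4, against 0.656 to 2.00 FPKM in WT. Fos, a target of the same list, was at 1000.5, 643, 1155 and 1217 FPKM in KO1 to KO4, against 1341, 1406, 435 and 1074 FPKM in WT1 to WT4, lowest in WT3 as Zfp36 was (limma adjusted p = 0.990).

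Among the 122 C2H2 or other zinc finger genes without a KRAB pattern, 3 rose and 3 fell (4.92%, against 15.7% of all genes). Without KO4 12 passed, and without KO2, WT1 or WT2 3 did. The pattern was read by script from GENCODE M21 coding sequences, and these genes held a median of 7 C2H2 fingers and a median level of 5.89 FPKM. Zfp672, with 13 fingers, had the smallest adjusted p of all 237 genes. It stood at 13.1, 11.1, 11.4 and 11.4 FPKM in KO1 to KO4, against 30.9, 24.5, 27.2 and 21.6 FPKM in WT1 to WT4. The KO libraries lay close together and far below the WT libraries, with a difference of -1.08 ± 0.13 (log2, SE; limma adjusted p = 0.000615). Zfp672 occupies bases 58315114 to 58330339 of chromosome 11 (GRCm38, minus strand) and overlaps the unnamed transcript 1700047K16Rik on the other strand. Its difference was -1.20 within title code 44 and -0.95 within codes 11 and 14, and -1.13 among the libraries with an Rn45s value and -1.03 among those listing it at 0.

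Zfp703, a protein without a C2H2 pattern whose human counterpart ZNF703 is amplified in breast cancer, had the largest difference in log2(FPKM + 1) of the 5 that rose. By the ratio of mean FPKM it was 2.22 times as high in KO as in WT, and Zfp667 2.53 times. It had 18.3, 17.7, 11.7 and 9.46 FPKM in KO1 to KO4, against 4.44, 4.78, 7.90 and 8.68 FPKM in WT1 to WT4. The genotypes did not overlap, though KO4 and WT4 were close (1.04 ± 0.26, limma adjusted p = 0.0260). The difference was 1.04 within each set of title codes, but 1.76 among the libraries with an Rn45s value and 0.31 among those listing it at 0. Zfp503, its closest relative, did not pass (0.57, limma adjusted p = 0.134).

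Zfp106, an RNA-binding protein needed by motor neurons and muscle, rose to 21.6, 17.8, 23.7 and 24.1 FPKM in KO1 to KO4, against 11.1, 11.5, 13.1 and 15.1 FPKM in WT1 to WT4. The lowest KO library lay above the highest WT library (0.74 ± 0.14, limma adjusted p = 0.00754). The difference was 1.02 within title code 44 and 0.45 within codes 11 and 14, and Zfp106 no longer passed in codes 11 and 14 alone or in the libraries listing Rn45s at 0 alone. Zfp292, a long protein whose human counterpart is mutated in neurodevelopmental disorders, had 10.5, 12.1, 19.99 and 16.6 FPKM in KO1 to KO4, against 7.48, 7.004, 9.96 and 9.24 FPKM in WT1 to WT4. KO1 stood just above WT3, and the difference (0.72 ± 0.21, limma adjusted p = 0.0436) was 1.22 within title code 44 and 0.21 within codes 11 and 14.

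Zfp644, whose human counterpart is a partner of the histone methyltransferase EHMT2, had 23.6, 19.3, 21.5 and 14.04 FPKM in KO1 to KO4, against 28.6, 24.2, 31.8 and 34.6 FPKM in WT1 to WT4. KO1 and WT2 nearly met, and the adjusted p was close to the threshold (-0.59 ± 0.17, limma adjusted p = 0.0475). The difference was -0.29 among the libraries with an Rn45s value and -0.90 among those listing it at 0. Zfp518a had 4.70, 2.54, 5.20 and 3.27 FPKM in KO1 to KO4, against 7.04, 8.39, 6.98 and 11.6 FPKM in WT1 to WT4 (-0.96 ± 0.22, limma adjusted p = 0.0181). The genotypes were apart, and WT4 was the highest. Within title code 44 the difference was -0.76, and within codes 11 and 14 it was -1.16. Of the 12 genes that passed, 7 overlap an annotated gene on the other strand, as 84 of the 237 do, and no source used here states whether the authors counted by strand.

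**Figure D2:**
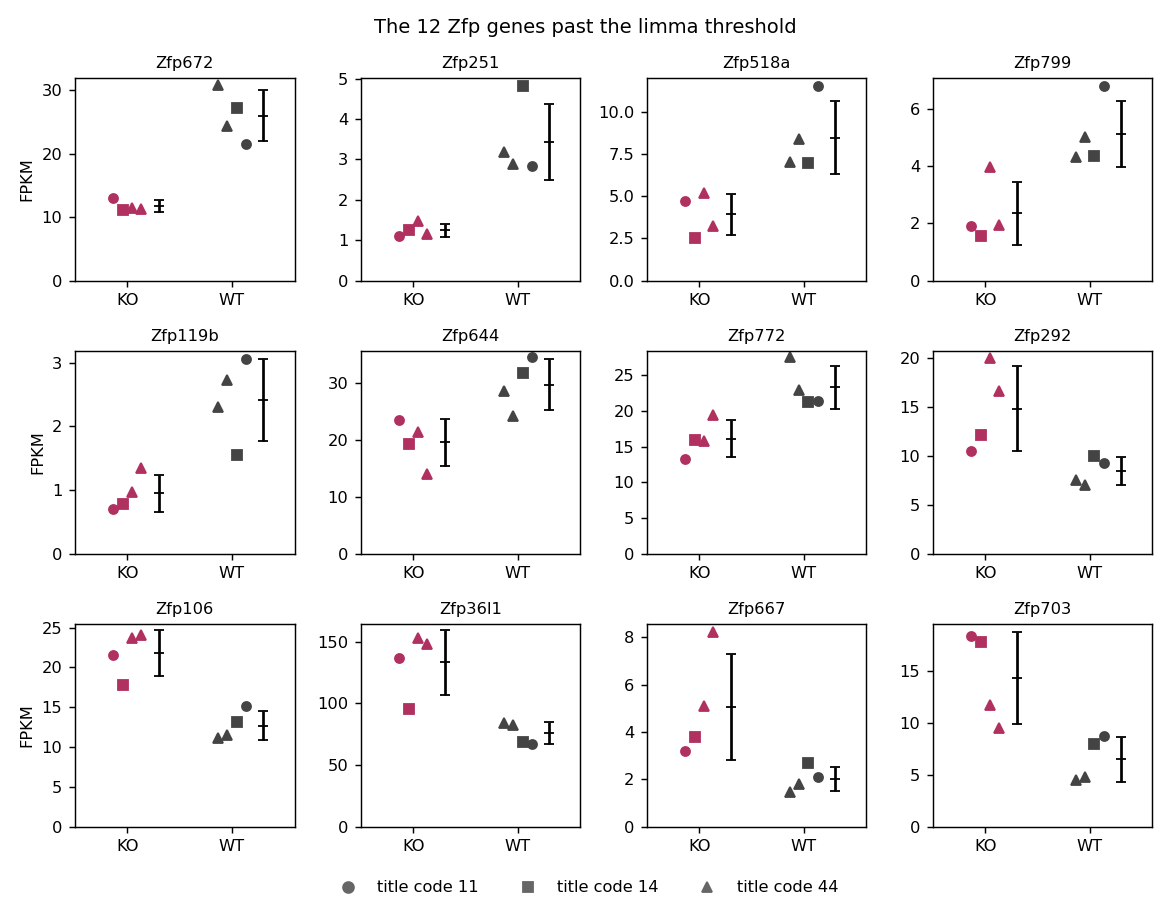
FPKM of the 12 Zfp genes that passed limma's test, 1 panel each with its own axis from 0, with KO libraries left of WT libraries. Each point is 1 library, its shape the title code, and the bar beside each group is the mean with its SD (n = 4); in all 12 panels the KO and WT points do not overlap.

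Genes with known roles in other parts of the cell mostly did not pass. Zfp207, a spindle assembly factor, averaged 65.4 ± 9.17 FPKM in KO and 71.6 ± 13.5 FPKM in WT (SD, n = 4 each; limma adjusted p = 0.652). Zfp185, a LIM domain protein of the actin cytoskeleton on the X chromosome, had 36.8 to 74.3 FPKM in KO and 46.9 to 85.4 FPKM in WT (limma adjusted p = 0.439). Zfp598, a sensor of collided ribosomes, had 18.2 to 20.9 FPKM in KO and 14.8 to 22.8 FPKM in WT, and Zfp622, a ribosome assembly factor, had 10.3 to 18.3 FPKM in KO and 11.2 to 14.7 FPKM in WT. Zfp593, another ribosome assembly factor, had 7.55, 5.49, 4.92 and 5.08 FPKM in KO1 to KO4, against 3.82, 3.78, 3.36 and 4.51 FPKM in WT1 to WT4. Every KO library lay above every WT library, yet the difference of 0.46 did not pass (limma adjusted p = 0.0829). Zfp326 had 10.9, 10.8, 8.43 and 5.31 FPKM in KO1 to KO4, against 4.05, 3.76, 6.02 and 5.07 FPKM in WT1 to WT4, where KO4 lay below WT3 (0.76 ± 0.23, limma adjusted p = 0.0508). It passed in 9 of the 27 alternative fits, and its difference was 1.27 among the libraries with an Rn45s value and 0.24 among those listing it at 0.

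Zfp706, Zfp266, Zfp217 and the less abundant Zfp281 were spread widely among KO libraries. Zfp706 had 86.2, 104, 133 and 145 FPKM in KO1 to KO4, against 127, 115, 111 and 95.9 FPKM in WT1 to WT4. Zfp266, the most abundant gene with a KRAB pattern, had 49.9, 51.5, 90.5 and 114 FPKM in KO1 to KO4, against 78.8, 86.6, 72.0 and 87.5 FPKM in WT1 to WT4. For both genes KO1 and KO2 were the lowest KO libraries, and KO3 and KO4 lay above all WT libraries (limma adjusted p = 0.918 and 0.711). Zfp217, whose human counterpart is amplified in breast cancer, had 21.2, 29.7, 16.9 and 17.3 FPKM in KO1 to KO4, against 17.3, 14.3, 13.0 and 15.96 FPKM in WT1 to WT4. KO3 lay below WT1, and the difference of 0.44 ± 0.18 did not pass (limma adjusted p = 0.148). Zfp281, a transcription factor of pluripotent cells, had 4.94, 6.08, 4.76 and 2.41 FPKM in KO1 to KO4, against 1.59, 1.80, 3.72 and 3.80 FPKM in WT1 to WT4. KO4 stood apart from the other KO libraries, below WT3 and WT4 (limma adjusted p = 0.222).

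Of the 29 genes whose libraries did not overlap, 17 did not pass. Zfp939, which has no annotated coding sequence, had 0.597, 0.297, 1.01 and 1.46 FPKM in KO1 to KO4, against 2.12, 2.14, 1.63 and 1.77 FPKM in WT1 to WT4 (-0.70 ± 0.21, limma adjusted p = 0.0510). Zfp282 had 8.54 to 12.04 FPKM in KO and 12.3 to 15.2 FPKM in WT (-0.44 ± 0.13, limma adjusted p = 0.0554). Zfp414 had 4.25 to 6.28 FPKM in KO and 7.02 to 7.50 FPKM in WT (-0.46, limma adjusted p = 0.0615). In these 3 genes the KO libraries were below the WT libraries, and in Zfp180 they were above them, at 7.38 to 10.04 FPKM in KO and 5.50 to 7.29 FPKM in WT (0.42 ± 0.14, limma adjusted p = 0.0732).

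The 111 genes with a KRAB pattern were expressed at low levels, with a median of 2.41 FPKM and a median of 12 fingers, and lay mostly below WT in KO. Of the 111, 97 had a difference below 0 (87.39%), against 49.13% of all genes tested and 50.75% of those averaging less than 5 FPKM. Their median difference was -0.27, against 0.08 for the Zfp genes without the pattern and 0.01 for all genes. Single genes seldom passed: 1 rose and 4 fell (4.5%, against 15.7% of all genes). Without KO4 14 passed, and without any other library but WT3 1 to 3 did. The median over the 111 genes was 1.66, 1.79, 2.35 and 2.62 FPKM in KO1 to KO4, against 2.26, 2.25, 3.36 and 3.07 FPKM in WT1 to WT4. KO1 and KO2 were the lowest, WT3 and WT4 the highest, and KO3 and KO4 lay above WT1 and WT2, so the genotypes overlapped.

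**Figure D3:**
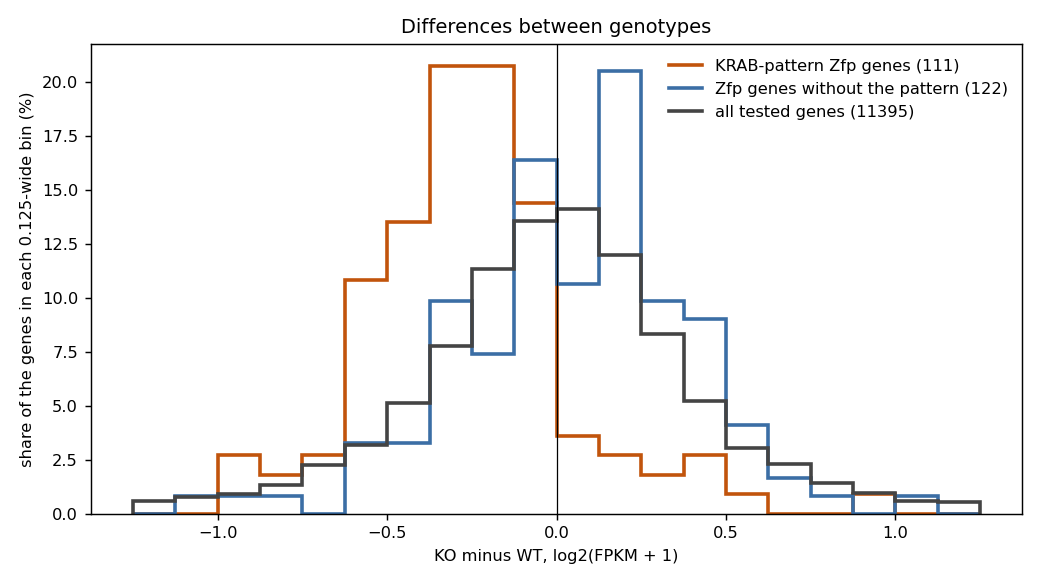
Share of genes (vertical axis, percent) in each bin of the KO minus WT difference in log2(FPKM + 1) (horizontal axis), for KRAB-pattern Zfp genes, Zfp genes without the pattern and all tested genes; a few genes with differences past the ends of the axis are not drawn. The KRAB-pattern curve is centred at -0.27 and the other curves near 0.

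The size and direction of this difference changed with the libraries compared. Within title code 44 the median of the 111 genes was 0.10, and within codes 11 and 14 it was -0.65. Of the 111, 71 lay above 0 in the first set and below 0 in the second, and 37 had the same sign in both. Among the libraries with an Rn45s value the median was -0.24, and among those listing Rn45s at 0 it was -0.26. For the Zfp genes without the pattern the median was 0.26 within title code 44, -0.12 within codes 11 and 14, 0.23 among the libraries with an Rn45s value and -0.06 among those without. The libraries with an Rn45s value lay below those without by a median of 0.37 in KO and 0.37 in WT, and 83 of the 111 genes (74.77%) were lower there in both genotypes, against 30.52% of all genes. For the Zfp genes without the pattern the medians were -0.07 in KO and -0.33 in WT, and 49.18% were lower in both genotypes. In this layout, the interaction of genotype with title code is the same contrast as that of the Rn45s listing over both genotypes, and so restates this shift. In a test added after these values were seen, it had an unadjusted p under 0.05 in 95 of the 237 Zfp genes (40.1%), against 15.5% of all genes, and in limma 0 of the 11395 genes passed the adjustment. The interaction of genotype with the Rn45s listing, in turn the contrast of title code 44 with codes 11 and 14, had an unadjusted p under 0.05 in 53 of the 237 (22.4%), against 29.1% of all genes. In limma 46 genes passed it, 1 of them a Zfp gene. Within either set of title codes, genotype and Rn45s listing cannot be told apart.

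**Figure D4:**
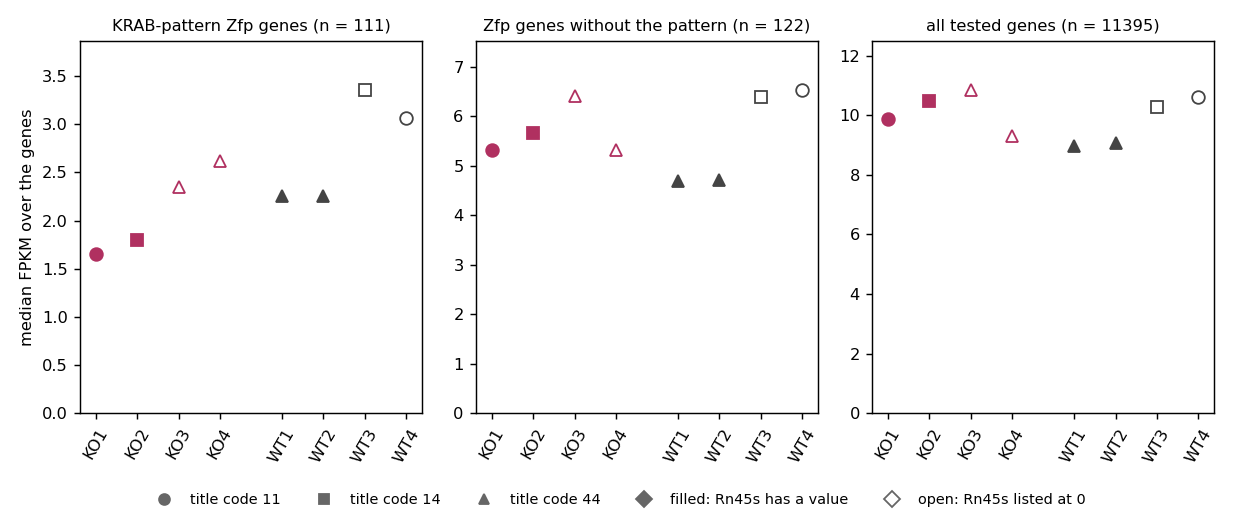
Median FPKM per library (vertical axis, from 0) over KRAB-pattern Zfp genes, Zfp genes without the pattern and all tested genes, with KO libraries left of WT libraries. Shapes give the title code and filled symbols the libraries with an Rn45s value; in the left panel the filled symbols, 1.66 and 1.79 in KO and 2.26 and 2.25 in WT, lie below the open ones of the same genotype.

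Zfp251, with 11 fingers, had the smallest adjusted p of the KRAB genes. It stood at 1.10, 1.26, 1.47 and 1.14 FPKM in KO1 to KO4, against 3.19, 2.89, 4.82 and 2.83 FPKM in WT1 to WT4, with WT3 the highest and no overlap (-0.96 ± 0.17, limma adjusted p = 0.00489). The difference was -0.81 within title code 44 and -1.12 within codes 11 and 14. Zfp251 occupies bases 76851609 to 76871435 of chromosome 15 (GRCm38). Zfp799, with 16 fingers, had 1.90, 1.56, 3.97 and 1.95 FPKM in KO1 to KO4, against 4.31, 5.01, 4.35 and 6.78 FPKM in WT1 to WT4. KO3 came close to the WT libraries (-0.90 ± 0.23, limma adjusted p = 0.0268), and the difference was -0.56 within title code 44 and -1.24 within codes 11 and 14. Zfp119b, whose promoter window lacks CpG, had 0.701, 0.778, 0.970 and 1.35 FPKM in KO1 to KO4, against 2.30, 2.72, 1.55 and 3.05 FPKM in WT1 to WT4 (-0.80 ± 0.19, limma adjusted p = 0.0200). The genotypes were apart by little between KO4 and WT3, and Zfp119a is a near copy that may share its fragments. Among the libraries with an Rn45s value the difference was -1.01, and among those listing it at 0 it was -0.58. Zfp772 had 13.2, 15.97, 15.7 and 19.5 FPKM in KO1 to KO4, against 27.6, 22.9, 21.2 and 21.4 FPKM in WT1 to WT4, a smaller fall (-0.51 ± 0.14, limma adjusted p = 0.0394). Its difference was -0.75 among the libraries with an Rn45s value and -0.27 among those listing it at 0.

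The KRAB gene that rose was Zfp667, known as Mipu1 and induced by ischaemia in rat heart. It had 3.17, 3.80, 5.11 and 8.21 FPKM in KO1 to KO4, against 1.45, 1.80, 2.67 and 2.08 FPKM in WT1 to WT4. All KO libraries were above all WT libraries, KO4 by the most (0.96 ± 0.25, limma adjusted p = 0.0294). The difference was 1.52 within title code 44 and 0.41 within codes 11 and 14. Zfp667 occupies bases 6286579 to 6307883 of chromosome 7 (GRCm38, plus strand).

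KRAB repressors with known targets did not pass. Zfp809, which silences proviruses in embryonic cells, had 1.54, 1.45, 3.29 and 4.00 FPKM in KO1 to KO4, against 3.67, 3.40, 4.35 and 4.28 FPKM in WT1 to WT4. KO1 and KO2 lay far below the other 6 libraries (-0.53, limma adjusted p = 0.193), and Zfp809 passed without KO4, with a difference of -0.72. Zfp445, which guards imprints, had 12.2 to 17.97 FPKM in KO and 13.4 to 18.3 FPKM in WT, and Zfp568, which represses Igf2, had 1.45 to 1.77 FPKM in KO and 1.27 to 2.91 FPKM in WT. Zfp57, the other guardian of imprints, was below the level minimum, at 0.535 to 0.820 FPKM in KO and 0.118 to 0.544 FPKM in WT.

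The corepressors that KRAB domains recruit were tested as a list of 22 genes, and in limma 0 passed, with 3 at an unadjusted p under 0.05 and a median difference of 0.14. The median was 0.42 among the libraries with an Rn45s value and -0.17 among those listing it at 0. With an Rn45s value 12 of the 22 passed, beside 4942 of the 11488 genes tested there. The corepressor median was 0.29 within title code 44 and -0.02 within codes 11 and 14. Trim28 had 79.4, 85.3, 67.1 and 39.7 FPKM in KO1 to KO4, against 40.6, 48.1, 58.8 and 70.5 FPKM in WT1 to WT4. KO4 was below all WT libraries and the genotypes overlapped (0.29 ± 0.25, limma adjusted p = 0.509). Setdb1 averaged 13.7 ± 2.14 FPKM in KO and 10.3 ± 2.31 FPKM in WT (SD, n = 4 each; limma adjusted p = 0.177). Chd3, a chromatin remodeller of the NuRD complex, had the smallest p, with 35.1 ± 6.83 FPKM in KO and 19.3 ± 8.72 FPKM in WT (SD, n = 4 each; 0.90, limma adjusted p = 0.0586). Atf7ip, which binds and stabilizes Setdb1, averaged 10.6 ± 2.20 FPKM in KO and 15.3 ± 2.52 FPKM in WT (SD, n = 4 each; -0.49, limma adjusted p = 0.0977).

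KRAB zinc finger genes often lie in tandem arrays. Of the 237 genes, 81 fell into 9 neighbourhoods of at least 5 members with gaps of at most 500 kb. These were 57 of the 111 genes with a KRAB pattern and 24 of the 122 without. The array on chromosome 13 from 67069399 to 67729173 (GRCm38) holds 12 members, all with a KRAB pattern, and 11 of them lay below 0, with a median of -0.37, though 0 passed in limma. The median FPKM of these 12 genes was 0.968, 0.953, 1.59 and 1.93 in KO1 to KO4, against 1.59, 1.64, 2.48 and 2.24 in WT1 to WT4. KO4 lay above WT1 and WT2, and the median difference was 0.13 within title code 44 and -0.84 within codes 11 and 14. On chromosome 17, from 32765496 to 33631779, 10 of 10 members lay below 0 with a median of -0.33, and Zfp799 passed. That median was 0.03 within title code 44 and -0.63 within codes 11 and 14. Of 17 members further up the same chromosome, from 21008903 to 23599487, 13 lay below 0 with a median of -0.18. Here the median was 0.13 within title code 44 and -0.46 within codes 11 and 14. Beside these counts, 87.39% of all 111 genes with a KRAB pattern lay below 0. The neighbourhoods on chromosome 7 had medians of 0.01, 0.02, -0.23 and -0.003. Reads of such closely related genes, Zfp874a and Zfp874b or Zfp955a and Zfp955b among them, can be shared, so single values are uncertain.

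**Figure D5:**
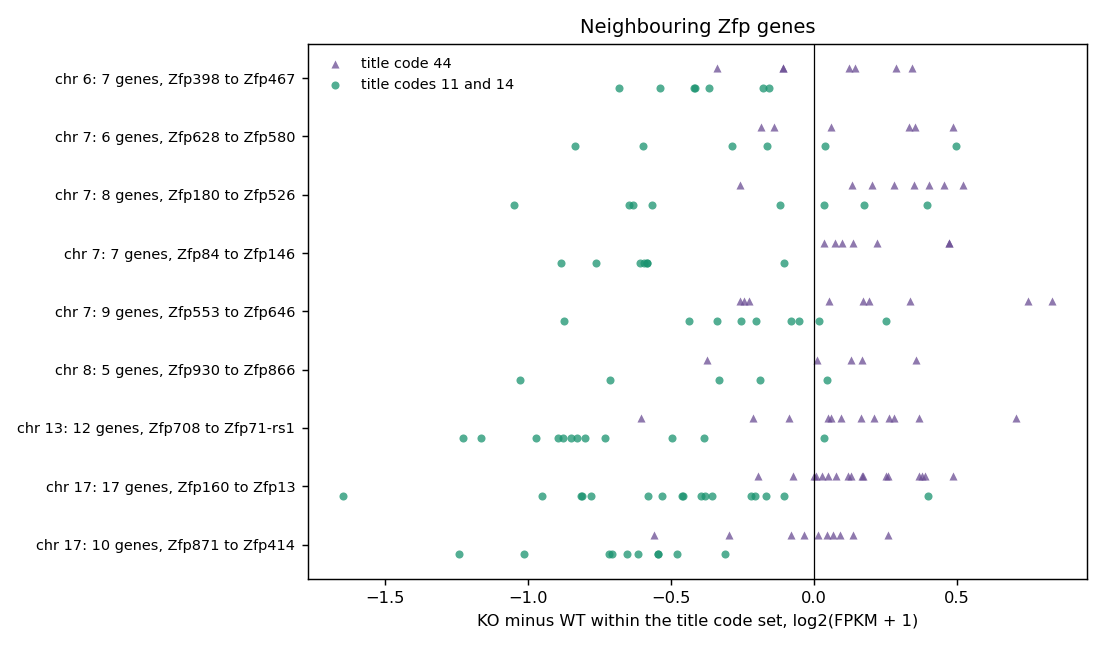
The 9 neighbourhoods of at least 5 Zfp genes, 1 per row, with the KO minus WT difference in log2(FPKM + 1) of each gene on the horizontal axis, computed within title code 44 (triangles) and within codes 11 and 14 (circles). In the chromosome 13 row the triangles have a median of 0.13 and the circles of -0.84.

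Of the 6 X-linked members, Zfp185, Zfp280c, Zfp711, Zfp92, Zfp182 and Zfp275, 0 passed in limma and 0 had an unadjusted p under 0.05. Xist, which coats the inactive X chromosome, had 126, 84.6, 150.4 and 1.84 FPKM in KO1 to KO4, against 0.0223, 0.0087, 118 and 0.0082 FPKM in WT1 to WT4. High and low libraries were present in both genotypes, in KO 3 high and 1 low and in WT 1 high and 3 low.

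Other zinc finger families by symbol stood beside the Zfp genes. Of 84 tested genes named Zbtb, Zscan, Zkscan, Zc3h, Klf or Sp, 7 rose and 1 fell (9.52%, against 15.7% of all genes). The median difference was 0.00, and 5 passed without KO2 or WT2. The rises were among Zbtb (3 of 36), Zc3h (2 of 13) and Klf (2 of 14), and the fall was among Zkscan (1 of 8). The Zkscan genes, which join a KRAB domain to a SCAN domain, had a median difference of -0.33, and the 7 Zscan genes one of -0.15. Within title code 44 these 2 medians were -0.06 and 0.34, and within codes 11 and 14 they were -0.49 and -0.64. The medians of the Zbtb, Zc3h, Klf and Sp genes were -0.07, 0.26, 0.35 and 0.32.

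Markers of some cell layers and cell types differed between the genotypes. Over all genes tested, 6.72% rose and 8.94% fell. The 12 tested genes of keratinocytes, the main cells of the epidermis, summed to 21922 to 25123 FPKM in KO and 20080 to 23393 FPKM in WT. Krtdap alone made up 7377 to 11452 FPKM of this in KO and 6307 to 9588 FPKM in WT. Of these 12 genes 3 rose, Krt14, Ivl and Sfn. Of 14 basal layer genes 8 rose, and their summed level was 2594 to 6745 FPKM in KO and 1245 to 3811 FPKM in WT. Of 12 tested Langerhans and myeloid genes 9 fell, with a median level of 0.541 to 1.33 FPKM in KO libraries and 6.59 to 10.9 FPKM in WT libraries. Without Epcam, which did not pass, the other 11 summed to 9.10 to 16.9 FPKM in KO and 71.2 to 114 FPKM in WT. Of the Merkel cell genes Chga alone was tested, and it fell to 0.997, 1.23, 0.817 and 1.87 FPKM in KO1 to KO4, against 32.4, 27.4, 56.6 and 25.8 FPKM in WT1 to WT4. The other 7 Merkel cell genes, each below 1 FPKM in every library, summed to 0.535 to 2.67 FPKM in KO and 0.845 to 3.21 FPKM in WT. Of 3 tested T cell genes 1 fell, and the 7 listed T cell genes summed to 1.69 to 5.91 FPKM in KO and 9.62 to 12.9 FPKM in WT. Of 5 tested fibroblast genes 0 passed in limma or at an unadjusted p under 0.05, with Mfap5 and Dpt at 0 in some libraries. Of 10 melanocyte genes 0 passed in limma or at an unadjusted p under 0.05, with sums of 20.4 to 105 FPKM in KO and 16.4 to 95.3 FPKM in WT, and of 9 tested hair follicle genes 1 fell. The part of these cells in the Zfp differences was not tested, and in whole epidermis fewer cells of a type and less RNA per cell cannot be told apart.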

How the data were processed

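Total RNA from 8 epidermis samples of newborn mice, 4 KO and 4 WT, was depleted of ribosomal RNA and sequenced as stranded paired-end libraries, per the labels' protocols. The deposited table holds FPKM values made by the authors, 1 per gene symbol and library. Per the submitters' processing notes, reads were placed on mm10. No source used here names the aligner, the quantifier or its use of strand. Absolute depth is unknown, so no counting intervals are given. The labels name separate samples without naming animals, so p-values measure the spread between these samples.

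Libraries were numbered in accession order. A missing value was taken as 0. Genes at 1 FPKM or more in at least 4 of 8 libraries (3 of 7 or 2 of 4 in smaller fits) were tested, except Krt1, Krt10, Flg2 and Rn45s, listed at 0 in some libraries and very high in others. Values were transformed to log2(FPKM + 1), a scale that understates changes of low genes, and compared by a mean-variance trend fit of limma (3.58.1; R 4.3.3), with Benjamini-Hochberg adjustment over 11395 genes and a threshold of 0.05. The script was tested on simulated data.

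Coordinates and coding sequences came from GENCODE M21 (GRCm38), and promoters from RefSeq. C2H2 patterns had cysteines 2 to 4 residues apart, a loop of 12 and histidines 3 to 5 apart. Named genes were those called, the most abundant, those fixed by role, those at the FPKM minimum, and the smallest p of each list. Beside these, Zfp503, Zfp939, Zfp282, Zfp414, Zfp180, Fos and the members of arrays were chosen as examples after their values were seen. The Zfp genes and all lists were chosen with earlier results of these data known.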

Additional observations from a re-analysis of the deposited data

Results flagged for a closer look

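Dixon's ratio was computed for each genotype of 40 named Zfp genes, 80 tests in all, of which chance flags about 1 in 20, and 5 values stood apart from the other 3 libraries of their genotype. Zfp672 had 13.1 FPKM in KO1, against 11.1 to 11.4 FPKM in the other KO libraries. Zfp799 had 3.97 FPKM in KO3, against 1.56 to 1.95 FPKM in the other KO libraries. WT3 stood apart for Zfp207 with 91.7 FPKM, against 63.7 to 67.0 FPKM in the other WT libraries. It did so for Zfp335, a regulator of neural progenitor genes, with 8.93 FPKM, against 6.74 to 6.90 FPKM, and for Zfp385a with 21.3 FPKM, against 15.7 to 16.4 FPKM. WT3 had the lowest summed FPKM of all libraries, 483416.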

How the results depend on the processing

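Of the alternatives, 0 turned the direction of a called gene, which those leaving out libraries could not do, as the genotypes did not overlap. The 12 Zfp calls were 10 to 17 under the other pseudocounts, filters, scalings and variance settings. Array weights gave 60 Zfp calls (25 with and 32 without a KRAB pattern), 3669 over all genes, 6 corepressors, 5 decay factors and 26 genes of other zinc finger families. With title code as a block there were 19 Zfp calls (10 without a KRAB pattern), 2261 over all genes and 1 corepressor. With log2 Xist as covariate there were 6 Zfp calls (1 with and 3 without a KRAB pattern), 1141 over all genes, 0 decay factors and 3 tristetraprolin targets. Title code 44 alone gave 9 Zfp calls (8 higher and 1 lower in KO, 2 with a KRAB pattern), beside 1227 of 11200 genes tested. It also gave 3 corepressors, 0 decay factors and 3 targets. Codes 11 and 14 alone gave 61 Zfp calls, 6 higher and 55 lower in KO, beside 1734 of 11713 genes tested. There a larger share of the Zfp genes than of all genes passed. Of these 61 calls, 43 had a KRAB pattern and 16 lacked it. The same fit gave 2 corepressors, 1 decay factor, 9 targets and 17 genes of other families. Median ratio scaling and quantile normalization gave 1 corepressor each, quantile normalization 10 Zfp genes without a KRAB pattern, and summed FPKM scaling 1 decay factor. Leaving out 1 replicate at a time gave 5 to 29 Zfp calls (1 to 14 with and 3 to 12 without a KRAB pattern), 1123 to 2326 over all genes, 0 to 1 corepressors, 1 to 3 decay factors, 3 to 7 targets and 5 to 12 genes of other families. 4 alternatives were chosen after seeing the data. The Rn45s block gave 22 Zfp calls (14 with a KRAB pattern), 1883 over all genes and 3 corepressors. Libraries with an Rn45s value alone gave 84 Zfp calls (40 with and 42 without a KRAB pattern), 4942 over all genes, 12 corepressors, 5 decay factors, 14 targets and 38 genes of other families. Of these 14 targets, 12 were higher and 2 lower in KO. Those listing Rn45s at 0 alone gave 1 Zfp call (0 with and 0 without a KRAB pattern, the 1 being Zfp36l1), 348 over all genes, 0 decay factors, 2 targets and 0 genes of other families. The first digits of the column header number as a block gave 1 decay factor and 5 genes of other families. The cause of these shifts was not tested. Fits on 4 libraries also test other genes. Each of the 3 title codes holds KO and WT libraries, so the block by code is given above. No paired analysis was possible because, as to replicate numbers, the title numbers shared between genotypes cover number 1 alone, which 2 KO libraries carry.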

Other observations

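Libraries of the same genotype were not always the most alike over the Zfp genes. The median absolute log2 difference over the 237 Zfp genes was 0.153 between KO1 and KO2, 0.129 between WT1 and WT2 and 0.168 between WT3 and WT4. It was 0.282 between KO3 and KO4, against 0.257 between KO4 and WT1. Between KO2 and WT3 it was 0.495. The 237 genes took 0.383%, 0.341%, 0.421% and 0.446% of the summed FPKM in KO1 to KO4, against 0.356%, 0.350%, 0.405% and 0.393% in WT1 to WT4, and the genotypes overlapped.

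Promoter windows of Zfp genes with a KRAB pattern had a median CpG ratio of 0.582 and a GC box in 35.6% (101 windows), against 0.721 and 59.2% in those without the pattern (98 windows). No test was made of this difference.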
